A study of Homo sapiens with 2 samples.

Results

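Cadherins and protocadherins are calcium-dependent adhesion proteins of the cell surface, and their genes are described here in the human line G401, which came from a rhabdoid tumor of the kidney. The members were all gene symbols made of CDH and a number or beginning with PCDH, which gave 95 of the 23456 symbols in the tables. They comprised 5 type I and 13 type II classical cadherins, 5 other cadherins, 13 non-clustered protocadherins and 2 antisense RNA genes. The remaining members were the 15 genes of the PCDHA cluster, 19 of PCDHB and 23 of PCDHG. RNA was sequenced from 1 library labelled G401-sg-control and 1 labelled G401-sg1-HOXB13, the series describes the second as a CRISPR knockout of HOXB13, and no other difference between the cells is labelled. Both cultures were grown in RPMI medium with serum and harvested before confluence, and ribosomal RNA was removed from total RNA. The labels do not say whether the cells were a pool or a clone, or where the guide cuts.

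Classical cadherins join neighbouring cells by binding one another across the gap between membranes, and their cytoplasmic tails anchor actin through beta-catenin, p120-catenin and alpha-catenin. E-cadherin, the product of CDH1, is the main cadherin of epithelia, and kidney tubules also use others. Protocadherins have related extracellular repeats but other cytoplasmic tails, and the clustered genes are best known for giving neurons surface identities through the choice of alternative promoters.

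Each group had 1 library, so no difference had a replicate check and no test or p-value was made. Levels are FPKM, fragments per kilobase of transcript, scaled to library size. Depth was estimated at 23.96 M fragments with the control guide and 23.47 M with the HOXB13 guide, from low values that stepped by whole fragments. HOXB13 itself had 14.6 FPKM with the control guide and 4.4999 with the HOXB13 guide, and SMARCB1, whose loss marks rhabdoid tumors, had 0.113 and 0.0577. A gene is called tested, in the sense that its ratio was compared, when it reached 1 FPKM in either library, which 11970 genes did. The difference was the log2 ratio of HOXB13-guide over control on (FPKM + 1), which understates the fold of low genes, and 2-fold on this scale counted as higher or lower. By that rule 4.25% of tested genes were higher and 4.51% lower, with a median log2 ratio of −0.05. Of the genes past 2-fold 48.5% were higher, and 22.2% when ratios were centred on 11 housekeeping genes, which moved the median of all genes to −0.31.

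Of the 95 members, 13 reached 1 FPKM in either library, 69 were above 0 but below 1 in both, and 13 were listed at 0 in both. CDH4 was the member past 2-fold higher with the HOXB13 guide, and CDH1, PCDH1 and PCDH18 were past 2-fold lower, beside 4.25% of all tested genes higher, 4.51% lower and 8.76% either. CDH4, PCDH1 and PCDH18 entered through 1 library only, where they were high, so their differences come in part from the rule of entry. The same holds for PCDHA4, which was within 2-fold and entered through the HOXB13-guide library. Of the 9 members at 1 FPKM or more in both libraries none was past 2-fold higher and CDH1 was the 1 past 2-fold lower, where 3.16% of all such genes were higher and 3.47% lower. The 12 tested members other than CDH1 had no more than 9.91 FPKM in either library.

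**Figure D1:**
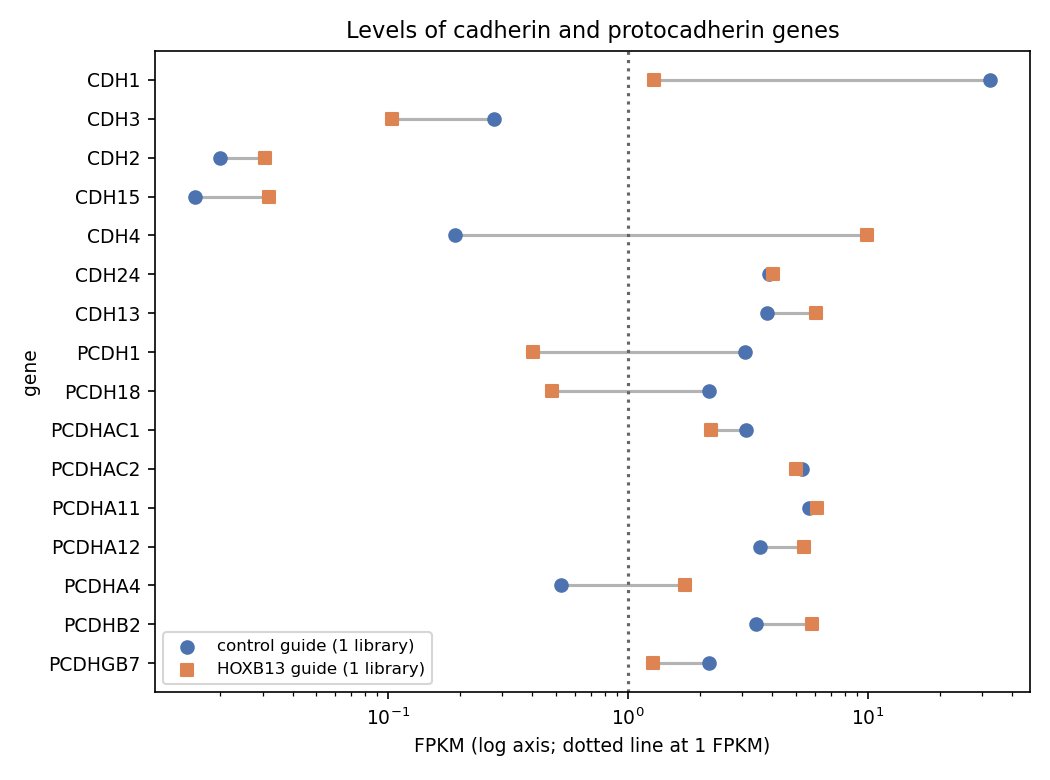
Level in FPKM, on a log axis, of every member at 1 FPKM or more in either library and of all type I cadherins; circles are the control library, squares the HOXB13-guide library, 1 library each. CDH1 moves from 32.3 to 1.28 and CDH4 from 0.190 to 9.91, while the points of CDH24, PCDHA11 and PCDHAC2 lie close together.

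The type I classical cadherins differed most in which gene supplied the mRNA. CDH1, on chromosome 16 from 68771195 to 68869444 in hg19, had 32.3 FPKM with the control guide and 1.28 with the HOXB13 guide. This is a log2 ratio of −3.87, or 25.2-fold lower without the pseudocount, and 14 of the 11970 tested genes, CDH1 included, had a ratio as low or lower. With a transcript of 4889 nt the values stood for about 3628 and 141 fragments, and the exact 95% binomial interval of the fold was 21.3 to 30.0. Such intervals cover counting error only and leave out differences between cultures or libraries, since each group had 1 library. They are also too narrow where fragments are PCR copies, which are not independent molecules. In these bulk RNA samples, fewer cells with CDH1 and less CDH1 mRNA per cell cannot be told apart.

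CDH4 encodes R-cadherin, first described in the retina and also made in the developing kidney and brain. The gene, on chromosome 20 from 59827482 to 60515673, had 0.190 FPKM with the control guide and 9.91 with the HOXB13 guide. Its log2 ratio was 3.20, or 52.1-fold higher without the pseudocount, and 31 tested genes, CDH4 included, had a ratio as high or higher. With a transcript of 6513 nt this was about 29 fragments against 1469, with a counting interval of the fold from 35.9 to 77.5. CDH1 and CDH4 thus had ratios of opposite sign, and the level CDH4 reached stayed below the level CDH1 had with the control guide.

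The other type I cadherins were below 1 FPKM in both libraries. CDH2, which encodes N-cadherin of nerve and mesenchyme, had 0.0200 FPKM with the control guide and 0.0306 with the HOXB13 guide, a ratio equal to 2 against 3 fragments or a multiple of these. The muscle cadherin gene CDH15 had 0.0157 and 0.0320, equal to 1 against 2. CDH3, which encodes P-cadherin and lies next to CDH1 on chromosome 16, had 0.276 and 0.104, so both of these neighbouring genes had lower values with the HOXB13 guide. At this depth a difference in CDH2 or CDH15 was not detectable.

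Of the 13 type II classical cadherins, CDH24 alone reached 1 FPKM. It had 3.86 FPKM with the control guide and 4.04 with the HOXB13 guide, with a counting interval of the fold from 0.888 to 1.23. Its log2 ratio of 0.05 became −0.20 when centred on housekeeping genes and stayed above 0 under the other scalings. The other 12 had at most 0.133 FPKM, the value of CDH12 with the HOXB13 guide. Among them were CDH6, a cadherin of fetal kidney and proximal tubule, at 0.0647 and 0.00508, and the mesenchymal cadherin gene CDH11, at 0.0242 and listed at 0. CDH5, the cadherin of endothelium, was listed at 0 in both libraries, as were CDH7, CDH9, CDH18 and CDH19. CDH6, CDH11, CDH12 and CDH5 were picked for their roles or values after these were seen.

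Summed over the 18 classical cadherins, the level was 36.9 FPKM with the control guide and 15.6 with the HOXB13 guide. CDH1 supplied 87.6% of this sum with the control guide and 8.22% with the HOXB13 guide, while CDH4 supplied 0.516% and 63.7%, and CDH24 10.5% and 25.9%. Without CDH1 the sum of the other 17 was 4.57 and 14.3 FPKM, and without CDH4 as well it was 4.38 in both libraries. The classical cadherin transcripts therefore differed in CDH1 and CDH4 and were alike in the sum of the rest. That rest was mostly CDH24, at 3.86 FPKM with the control guide and 4.04 with the HOXB13 guide. The median log2 ratio of the 3 tested classical cadherins was 0.05, the value of CDH24 that lay between them, and their mean was −0.21, of the opposite sign.

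**Figure D2:**
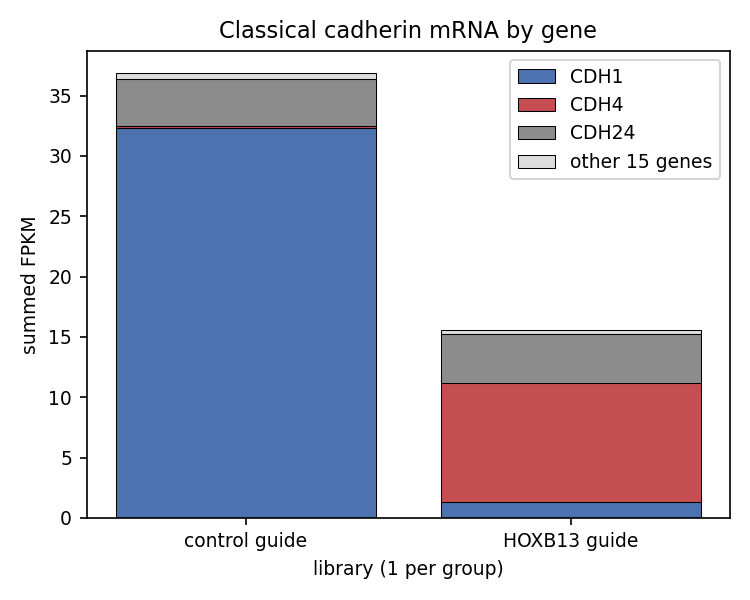
Summed FPKM of the 18 classical cadherin genes in each library, 1 library per bar, split by gene. CDH1 makes up most of the 36.9 FPKM with the control guide, and CDH4 most of the 15.6 FPKM with the HOXB13 guide.

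Among the 5 cadherins outside the classical types, CDH13 was the 1 tested. It encodes T-cadherin, which is held in the membrane by a lipid anchor and has no cytoplasmic tail. Its level was 3.79 FPKM with the control guide and 6.07 with the HOXB13 guide (log2 0.56, short of 2-fold), and the counting interval of the fold was 1.36 to 1.90. CDH23, a component of the tip links of hair cells, had 0.671 and 0.720 FPKM. CDH16, the cadherin of kidney tubules, and CDH17, of liver and intestine, were listed at 0 in both libraries. CDH16, CDH17 and CDH23 were named after their values were seen.

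The tested genes around CDH1 and CDH4 stayed within 2-fold. Of all tested genes 8.76% were past 2-fold, so windows with this few genes would hold few or none. CDH3, near CDH1 and below the limit for testing, was 2.64-fold lower without the pseudocount. Within 500 kb of CDH1, 12 other genes were tested and none was past 2-fold, with log2 ratios from −0.54 to 0.78. Within 500 kb of CDH4, 10 were tested and none was past 2-fold, with log2 ratios from −0.18 to 0.76. Around PCDH1, 11 were tested and SPRY4, an inhibitor of growth factor signalling, was the 1 past 2-fold lower, at 23.36 and 10.95 FPKM. Its log2 ratio of −1.03 lay just past the line. No gene near PCDH18 was tested.

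Of the 13 non-clustered protocadherins 2 were tested, and both were past 2-fold lower with the HOXB13 guide, beside 4.51% of all tested genes. PCDH1, a protocadherin of airway epithelium among other tissues, had 3.07 FPKM with the control guide and 0.402 with the HOXB13 guide. Its log2 ratio was −1.54, or 7.64-fold lower without the pseudocount, from about 338 and 43 fragments, with a counting interval of the fold from 5.59 to 10.8. PCDH18, of the delta protocadherin group, had 2.18 and 0.485 FPKM (log2 −1.10), or 4.49-fold lower without the pseudocount, with a counting interval from 3.41 to 5.95. Both reached 1 FPKM with the control guide only, so their differences come in part from the rule of entry.

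The other non-clustered protocadherins whose levels are given here were at 0.111 FPKM or less. Over all 13 genes, 10 had a lower value with the HOXB13 guide, 2 a higher value and 1 was listed at 0 in both. Of all genes in the tables whose values differed, 53.1% had the lower value with the HOXB13 guide. Most of the 10 were below 0.1 FPKM in both libraries. PCDH19, whose loss causes an epilepsy, had 0.111 and 0.0135 FPKM. PCDH10 had 0.0242 and 0.0247, like PCDH19 named after its values were seen, and PCDH8 was listed at 0 in both. The Y-linked PCDH11Y was counted and its level is not given, and PCDH11X is a near-identical copy of it, so reads between them are uncertain. The summed level of the 13 was 5.56 FPKM with the control guide and 1.02 with the HOXB13 guide, of which PCDH1 and PCDH18 supplied 55.3% and 39.2% with the control guide.

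The promoters of PCDH1 and PCDH18, the protocadherins that were past 2-fold lower, are shown from the 250 bases before the RefSeq start (build GRCh38.p14), since repressors of CDH1 such as SNAI1 and ZEB1 bind E-boxes. The letters CANNTG, which read the same on both strands, are in capitals.
PCDH1 (chr5:141869628-141869877, minus strand): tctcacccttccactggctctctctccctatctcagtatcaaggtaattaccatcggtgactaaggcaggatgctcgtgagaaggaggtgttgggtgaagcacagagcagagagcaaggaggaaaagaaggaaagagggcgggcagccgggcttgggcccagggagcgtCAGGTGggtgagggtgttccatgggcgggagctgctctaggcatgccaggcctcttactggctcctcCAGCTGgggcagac
PCDH18 (chr4:137532495-137532744, minus strand): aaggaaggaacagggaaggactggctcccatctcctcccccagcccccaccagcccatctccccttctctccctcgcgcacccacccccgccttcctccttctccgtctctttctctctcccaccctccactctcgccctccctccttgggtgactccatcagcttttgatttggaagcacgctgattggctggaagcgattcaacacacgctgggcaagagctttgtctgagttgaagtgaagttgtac
PCDH1 held 2 matches and PCDH18 none in this window, and 61.8% of all 35116 promoter entries held at least 1. The PCDH1 matches read CAGGTG and CAGCTG, and CAGGTG or CACCTG was in 17.5% of all entries. A match describes letters and is not a binding site.

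The clustered protocadherins lie side by side on chromosome 5, and their loci are read by cluster. All 15 PCDHA genes end at 140391929 in hg19 and 21 of 23 PCDHG genes at 140892546, because each first exon is spliced to the same last exons, so fragments from those exons cannot be assigned to 1 gene directly. PCDHB genes share no exons but are close copies of one another. The sequence shown for each gene below is the 22 bases around the core letters CGCT of the element known to be shared by promoters of clustered protocadherins, with the core in capitals, on GRCh38.p14. The genes are those with a match that led a cluster or were among the most different in it, with PCDHA7 for comparison.
PCDHA4 (chr5:140806983-140807004, plus strand): gccacatgatgtCGCTctttac
PCDHA7 (chr5:140834176-140834197, plus strand): gccacatgatgtCGCTctttac
PCDHA11 (chr5:140868887-140868908, plus strand): ggcgcaaggtgtCGCTctttac
PCDHA12 (chr5:140875248-140875269, plus strand): gtcacatgatgtCGCTctacac
PCDHAC1 (chr5:140926224-140926245, plus strand): agaaggtgtggtCGCTcacgtt
PCDHB2 (chr5:141094548-141094569, plus strand): gacgcggggtggCGCTgcagcc
PCDHB3 (chr5:141100397-141100418, plus strand): aacgcatggtggCGCTgttgac
PCDHGB2 (chr5:141359925-141359946, plus strand): acctctgagcgtCGCTgttggt
PCDHGA10 (chr5:141412935-141412956, plus strand): gactctgagcgcCGCTgttcac
Searched on the gene's strand as GNCGCT, a pattern chosen after these promoters were seen, the letters were in 11 of 13 PCDHA, 14 of 14 PCDHB and 19 of 20 PCDHG promoters with an entry. They were in 28.4% of all promoters of this 300-base length, and in 44.0% when both strands were searched. PCDHA9, PCDHAC2, PCDHB8 and PCDHGB7 held no match before their start. PCDHA7 and PCDHB2 held 2, and the one farther from the start is shown.

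In the PCDHA cluster 5 genes were tested and none was past 2-fold. PCDHA11 had 5.66 FPKM with the control guide and 6.11 with the HOXB13 guide, PCDHA12 had 3.57 and 5.43, PCDHAC1 had 3.11 and 2.23, and PCDHAC2 had 5.29 and 5.02. These 4 genes supplied 89.5% of the cluster's FPKM with the control guide and 84.9% with the HOXB13 guide, so the same genes led in both. PCDHA4 had 0.527 and 1.73 FPKM, a log2 ratio of 0.84 and 3.28-fold higher without the pseudocount, and its share of the cluster was 2.67% and 7.80%. PCDHA4 was tested through the HOXB13-guide library only, where it was high, so its difference comes in part from the rule of entry. PCDHA7, whose 22 bases above are the same as those of PCDHA4, had 0.0718 and 0.103 FPKM.

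The other 10 PCDHA genes had at most 0.457 FPKM, the value of PCDHA3 with the HOXB13 guide. Genes at low and at higher levels stood next to each other, as PCDHA10 (0.187 and 0.166 FPKM) beside PCDHA11 and PCDHA13 (0.188 and 0.234 FPKM) beside PCDHA12. The summed level of the cluster was 19.7 FPKM with the control guide and 22.1 with the HOXB13 guide, a log2 ratio of 0.16 that became −0.09 when centred on housekeeping genes. PCDHA3, PCDHA7, PCDHA10 and PCDHA13 were named after their values were seen.

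In the PCDHB cluster PCDHB2 was the 1 tested gene. It had 3.42 FPKM with the control guide and 5.84 with the HOXB13 guide (log2 0.63, short of 2-fold), about 207 and 347 fragments, with a counting interval of the fold from 1.44 to 2.04. PCDHB3, its neighbour, had 0.654 and 0.894 FPKM, with an interval from 0.907 to 2.01 that includes no difference. Both intervals take the estimates as whole, independent fragments, and division of fragments between close copies was not tested. PCDHB2 and PCDHB3 supplied 77.1% of the cluster's FPKM with the control guide and 82.9% with the HOXB13 guide. PCDHB13, below the limit for testing, had 0.0607 and 0.194 FPKM (log2 0.17), or 3.19-fold higher without the pseudocount. Its values stood for about 4.78 and 14.9 fragments. PCDHB1 was listed at 0 in both libraries. The summed level was 5.29 and 8.13 FPKM, a log2 ratio of 0.54 that was 0.29 when centred on housekeeping genes.

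In the PCDHG cluster PCDHGB7 was the 1 tested gene, at 2.19 FPKM with the control guide and 1.27 with the HOXB13 guide (log2 −0.49). PCDHGB2 lay just under the limit for testing, at 0.987 and 0.0951 FPKM, or 10.4-fold lower without the pseudocount, and PCDHGA10 had 0.627 and 0.300. PCDHGB2 held 21.5% of the cluster with the control guide and 3.49% with the HOXB13 guide. In the other direction PCDHGC3 was listed at 0 with the control guide and had 0.216 FPKM with the HOXB13 guide. The summed level was 4.59 and 2.73 FPKM (log2 −0.58), so the PCDHG sum had a ratio below 0 where the PCDHB sum had a ratio above 0, under each scaling tried. By gene, 10 PCDHG genes had a higher value with the HOXB13 guide, 11 a lower value and 2 were listed at 0 in both.

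**Figure D3:**
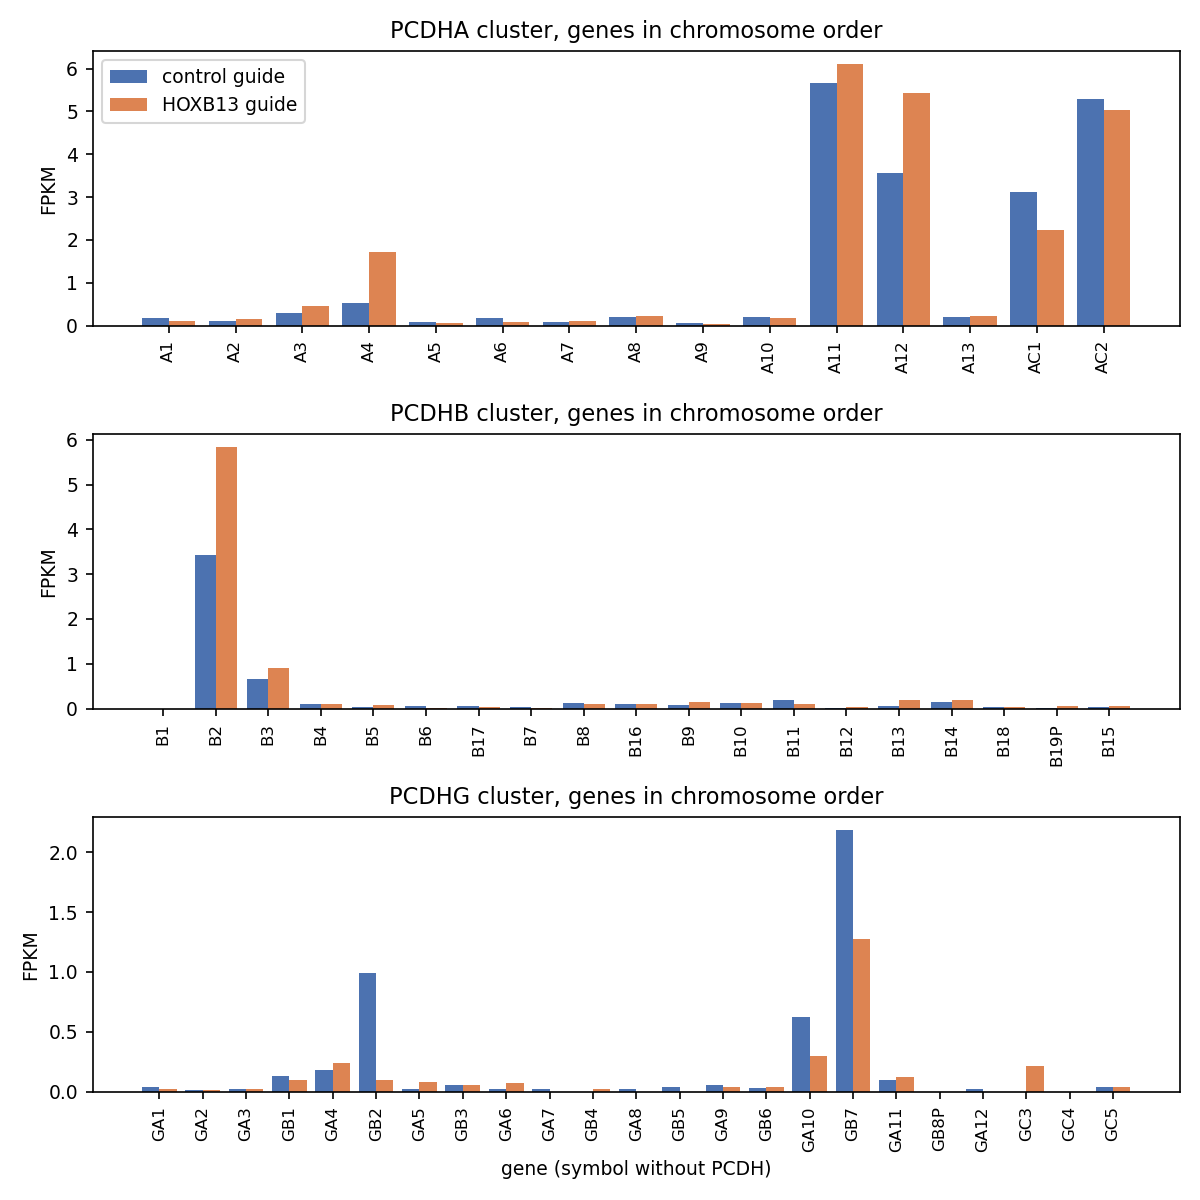
FPKM of each clustered protocadherin gene in chromosome order, with 1 bar per library and a separate linear axis for each cluster. PCDHA11, PCDHA12, PCDHAC1 and PCDHAC2, PCDHB2 and PCDHGB7 lead their clusters in both libraries, PCDHA4 is higher with the HOXB13 guide (0.527 and 1.73) and PCDHGB2 lower (0.987 and 0.0951).

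The promoters of PCDHA4 and PCDHGB2, which had the largest log2 ratios within the clusters and opposite signs, are given as the 250 bases before the RefSeq start with the core letters in capitals.
PCDHA4 (chr5:140806818-140807067, plus strand): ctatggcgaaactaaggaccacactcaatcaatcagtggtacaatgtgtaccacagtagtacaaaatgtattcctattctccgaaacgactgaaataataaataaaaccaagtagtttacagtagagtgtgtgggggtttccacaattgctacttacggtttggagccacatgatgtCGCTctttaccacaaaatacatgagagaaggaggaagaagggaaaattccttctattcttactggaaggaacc
PCDHGB2 (chr5:141359886-141360135, plus strand): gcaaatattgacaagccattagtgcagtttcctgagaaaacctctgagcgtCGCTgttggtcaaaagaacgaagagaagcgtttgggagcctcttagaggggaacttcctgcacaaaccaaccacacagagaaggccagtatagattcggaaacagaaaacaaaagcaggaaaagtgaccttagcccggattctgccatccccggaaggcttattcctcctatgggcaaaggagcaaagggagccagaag
The core stood 73 bases before the start in PCDHA4 and 199 in PCDHGB2.

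The 70 protocadherins summed to 35.1 FPKM with the control guide and 34.0 with the HOXB13 guide, 0.968 of the control level, whereas the 18 classical cadherins summed to 0.422 of it. The classical sum was lower through CDH1, since without it the sum was higher with the HOXB13 guide (4.57 and 14.3 FPKM). The protocadherin sum held unlike parts, at 0.183 of the control level for the non-clustered genes, 1.12 for PCDHA, 1.54 for PCDHB and 0.594 for PCDHG. PCDHA was the largest part, at 19.7 FPKM with the control guide and 22.1 with the HOXB13 guide. The median log2 ratio was −0.06 over the 9 tested protocadherins and 0.05 over the 3 tested classical cadherins, beside −0.05 over all tested genes. With a minimum of 5 FPKM both medians changed sign, to −0.34 over 2 classical cadherins and 0.29 over 4 protocadherins. The difference between the classes was not tested, since each group had 1 library.

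**Figure D4:**
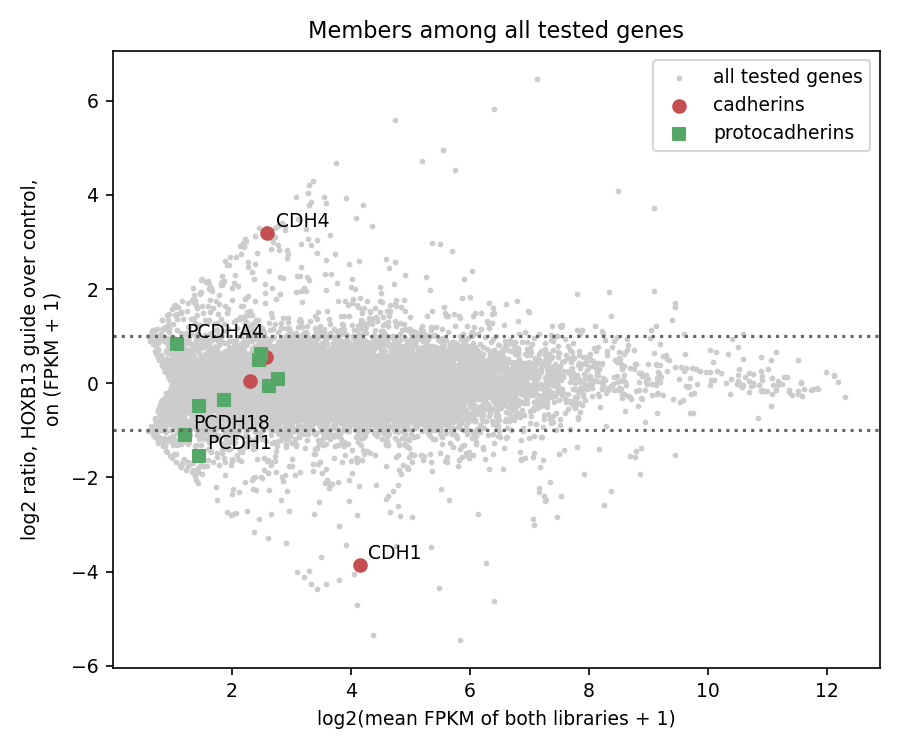
Log2 ratio of HOXB13-guide over control on (FPKM + 1) against the log2 mean level, for 11970 tested genes in grey and the 13 tested members in colour, with dotted lines at 2-fold. CDH4 (3.20) and CDH1 (−3.87) lie at the edges of the cloud, and PCDH1 and PCDH18 lie below the lower line.

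The catenins that link classical cadherins to actin were abundant in both libraries. Of 15 catenins, relatives of p120-catenin and plaque proteins 11 were tested, 1 was higher and 1 lower, with a median log2 ratio of −0.02. CTNNB1, which encodes beta-catenin, had 108 FPKM with the control guide and 129 with the HOXB13 guide, and JUP, which encodes plakoglobin, had 18.6 and 31.1. VCL, which encodes vinculin, had 149 and 309, and the neural alpha-catenin gene CTNNA2 had 1.51 and 0.128. PKP2, a plakophilin, had 3.99 and 2.52, and CTNND1, which encodes p120-catenin, had 33.1 and 42.9. CTNNA2 and PKP2 were the named genes of this list below 10 FPKM. No desmosomal cadherin of the DSC and DSG families reached 1 FPKM, and their 7 genes summed to 0.0770 and 0.180 FPKM.

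Other genes with cadherin repeats included 2 of 7 tested that were higher and none lower, with a median log2 ratio of 0.37. The shares of all tested genes were 4.25% higher and 4.51% lower. FAT1, a giant protocadherin that organises actin at cell edges, had 0.146 FPKM with the control guide and 5.58 with the HOXB13 guide, which puts it beside CDH4 as a gene that was near 0 with the control guide. CLSTN2, a calsyntenin of synapses, had 1.92 and 13.2, and CLSTN1 had 30.4 and 57.7. CELSR2 and CELSR3, of planar cell polarity, had 2.82 and 3.40 with the control guide and 3.92 and 2.88 with the HOXB13 guide. CELSR1 had 3.65 and 4.01.

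Of 22 nectins and junction partners 13 were tested, with 1 higher and none lower (median 0.03). That 1 was CGN, which encodes cingulin of tight junctions, at 2.92 and 8.32 FPKM. CLDN6, a claudin of embryonic epithelium, had 30.5 and 16.6, and TJP1, which encodes the scaffold ZO-1, had 38.2 and 26.6. F11R, an adhesion molecule of junctions, had 12.3 and 19.9, CLDN4 had 1.002 and 1.888, and TJP3 had 4.65 and 3.03.

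Of 14 repressors of CDH1 6 were tested, none was past 2-fold higher and 1 was lower, with a median log2 ratio of −0.34. SNAI1, which encodes Snail, had 10.1 FPKM with the control guide and 9.72 with the HOXB13 guide, and ZEB1 had 14.6 and 9.56. TWIST2 had 2.71 and 4.28, FOXC2 had 11.1 and 4.46, FOXC1 had 6.41 and 4.27, and TCF3 had 32.0 and 28.1. SNAI2 and TWIST1 were listed at 0 in both, and ZEB2 had 0.0288 and 0.00473. SNAI3 had 0.220 and 0.619, or 2.81-fold higher without the pseudocount. In the other direction TCF4 had 0.414 and 0.0475, or 8.70-fold lower, and KLF8 had 0.173 and 0.0118, or 14.7-fold lower. SNAI2, TWIST1, ZEB2, SNAI3, TCF4 and KLF8 were below the limit for testing and were named after their values were seen. TWIST2 was the 1 of the 6 tested with a ratio above 0. The mRNA level says nothing of the protein's activity.

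Of 20 epithelial genes 6 were tested and none was past 2-fold (median −0.34), but centred on housekeeping genes GRHL3 was past 2-fold lower (log2 −1.17). KRT8 and KRT18, the keratins of simple epithelium, had 1273 and 1023 FPKM with the control guide, and 1809.9 and 1572 with the HOXB13 guide. EPCAM, an epithelial adhesion molecule, had 8.68 and 5.72, GRHL3, an epithelial transcription factor, had 34.7 and 17.9, LSR of tricellular junctions had 26.7 and 19.2, and ESRP2, an epithelial splicing factor, had 1.91 and 1.49. Its relative ESRP1 had 0.475 and 0.0127 FPKM, 37.3-fold lower without the pseudocount. In the other direction ELF3 had 0.156 and 0.820 FPKM, 5.25-fold higher, and CDS1 had 0.0864 and 0.324, 3.74-fold higher. ESRP1, ELF3 and CDS1 were below the limit for testing and were named after their values were seen.

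Of 16 mesenchymal genes 10 were tested, 4 were higher and none lower, with a median log2 ratio of 0.97. Of all tested genes 4.25% were higher and 4.51% lower. Centred on housekeeping genes, which lowers every ratio alike, S100A4, COL3A1 and SPARC stayed past 2-fold higher and THY1 did not (log2 0.86). S100A4 had 75.6 FPKM with the control guide and 1009 with the HOXB13 guide, COL3A1 had 40.6 and 126, SPARC, a matrix glycoprotein, had 7.41 and 21.8, and THY1 had 1.97 and 5.44. COL1A1 had 21.4 and 42.4, and TAGLN, an actin-binding protein of smooth muscle, had 113 and 226. VIM, which encodes vimentin, had 560 and 568, and FN1, which encodes fibronectin, had 0.233 and 0.0995, and their values had been seen when they were named. CDH2, often counted as mesenchymal, was near 0 in both libraries.

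**Figure D5:**
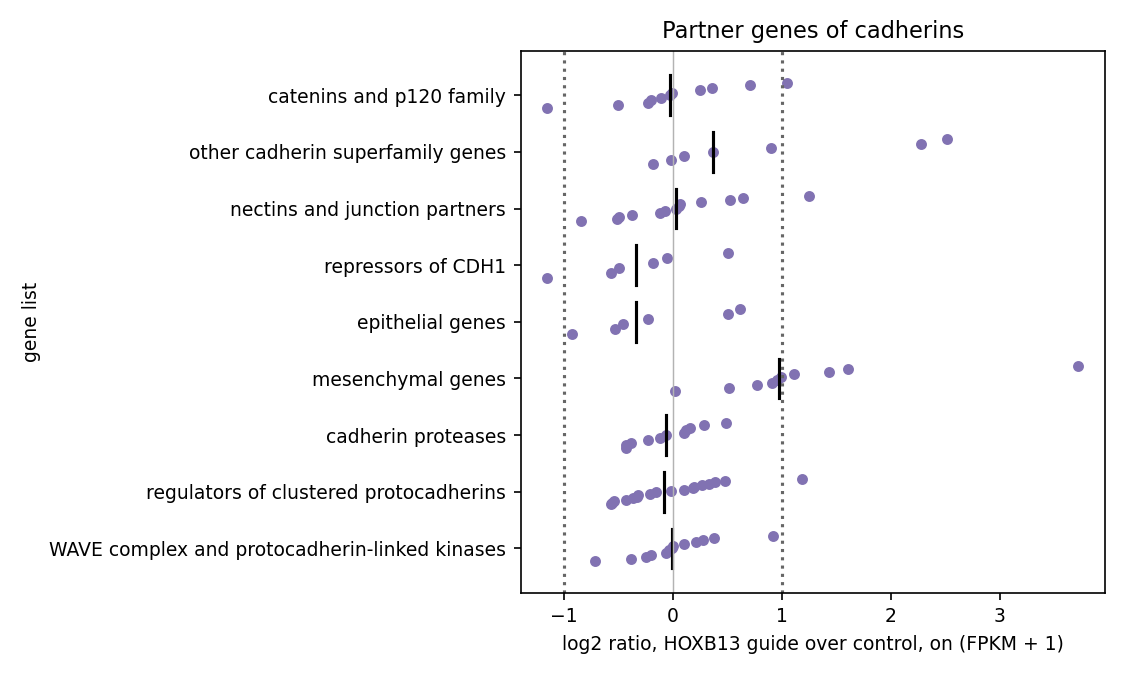
Log2 ratio of HOXB13-guide over control on (FPKM + 1) for each tested gene of 9 partner lists, 1 point per gene, with a bar at each list's median and dotted lines at 2-fold. The mesenchymal list has the highest median (0.97), and the repressors of CDH1 and the epithelial genes have the lowest (both −0.34).

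No protease on the list of those that cut cadherins was past 2-fold. Of 13 genes 11 were tested, with a median log2 ratio of −0.06. ADAM10, the main sheddase of E-cadherin, had 22.1 FPKM with the control guide and 27.2 with the HOXB13 guide. Also named were ADAM9 (32.0 and 45.5), ADAM17 (19.6 and 14.3), MMP14 (142 and 105) and PSEN2 (12.2 and 10.3).

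All 18 regulators of clustered protocadherins were tested, with 1 higher and none lower (median −0.08). CTCF and RAD21, which loop enhancers to the chosen promoters, had 22.6 and 91.1 FPKM with the control guide and 20.2 and 104 with the HOXB13 guide, outside the naming rule. DNMT3B, the methyltransferase that marks unused clustered promoters in mouse neurons, was the gene past 2-fold, at 4.292 and 11.05. RCOR1 had 23.7 and 15.7, STAG2 had 52.8 and 35.7, WIZ had 21.9 and 14.7, DNMT1 had 24.6 and 34.6 and SETDB1 had 15.7 and 11.4.

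Of 15 genes of the WAVE complex and of kinases linked to protocadherins 13 were tested and none was past 2-fold (median −0.01). TAOK2 had 7.18 FPKM with the control guide and 14.5 with the HOXB13 guide, and WASF3 had 3.61 and 1.82. WASF1 had 32.2 and 42.2, PTK2B had 1.77 and 1.13, PTK2, the focal adhesion kinase, had 37.3 and 45.6, and RYK had 38.7 and 32.6. Across the 9 partner lists and the desmosomal list, 9 genes were higher and 2 lower past 2-fold, together 11.6% of the 95 tested, beside 8.76% of all tested genes. FAT1 and CTNNA2 entered through 1 library only, where they were high, as did COL1A2 and ACTA2, which were within 2-fold. Centred on housekeeping genes 5 were higher and 4 lower: VCL, CGN, THY1 and DNMT3B were then within 2-fold (log2 0.80, 0.999, 0.86 and 0.93), and CLDN6 (−1.09) and GRHL3 were past 2-fold lower.

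Markers of other cell types stayed near 0 in both libraries. The 5 endothelial markers summed to 0.0145 FPKM with the control guide and 0.120 with the HOXB13 guide, with CDH5, KDR and TEK at 0. The 5 leukocyte markers summed to 0.708 and 0.588, and the 4 skeletal muscle markers to 0.347 and 0.200. The 5 neuronal markers summed to 1.98 and 2.91, nearly all of it SYP, which other secretory cells also express, and SNAP25 was at 0. Of the epithelial markers KRT8 and KRT18 were abundant, while KRT19 had 0.459 and 0.469 FPKM and CDH16 was at 0.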

How the data were processed

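The authors deposited 1 table of FPKM per library, each with 25001 rows. The tools were TopHat, Bowtie and Cufflinks on hg19, per the submitters' processing notes; the sources used here give no version, setting, annotation or strand mode, so overlapping antisense genes may share reads. Deposited values of 0.001 were read as 0, failed estimates were left out and rows sharing a symbol were summed; no member had several rows or a failed estimate. Values were not rescaled. With 1 library per group the design named no test. The ratio used a pseudocount of 1 FPKM, a minimum of 1 FPKM in either library and 2-fold as a rule of size, and the calling step was tested on simulated data. Named were all tested members, all type I cadherins, the 5 next members by absolute log2 ratio from 0.1 FPKM upwards, and up to 6 tested genes per partner list, of which 1 protease is not reported here; others are said to be outside this. The members and lists were chosen with earlier results of these data known. Depth was the value at which most intronless genes (76 of 114) gave whole fragments within 0.03 with the control guide, with 200 bases taken from each length; the HOXB13-guide depth followed from the ratio 1.02 shared by 299 low genes. Transcript lengths came from GENCODE 29, which is on another build, and were used as lengths only. RefSeq promoters (GRCh38.p14) matched 71 of 95 members by symbol. Coordinates count from 1. Tools were matplotlib 3.10.9, scipy 1.17.1, numpy 2.4.6 and pandas 2.3.3 under Python 3.11.15.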

Additional observations from a re-analysis of the deposited data

How the results depend on the processing

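The signs of CDH1, CDH4, PCDH1 and PCDH18 and their side of 2-fold held under all pseudocounts and scalings tried. The choice of row could not change them, since no member had several rows. With a pseudocount of 0.1 FPKM the log2 ratio of CDH1 was −4.55, and 2 members were higher, as with 0.5 FPKM, because PCDHA4 then passed (log2 1.54 and 1.12). CDH4 was then at 5.11 and 3.92, and with 0.1 FPKM PCDH1 was at −2.66 and PCDH18 at −1.96. PCDHGB2, below the limit for testing, had −2.48 and −1.32 with these pseudocounts. At a minimum of 5 FPKM fewer genes were tested and 1 member and 1 partner gene were lower, and the medians of classical cadherins and protocadherins changed sign (−0.34 and 0.29). At 1.5-fold 3 members were higher, and at 4-fold 1 was lower, CDH1. Centring on housekeeping genes gave 5 higher and 4 lower partner genes, and PCDHGB2 −1.11. The median of non-clustered protocadherins alone was −1.32, by the choice of members. Of 222 recomputed values 203 moved by less than 1.5-fold and stayed on the same side of 2-fold, although some near 0 changed sign. Among the 203 were the values of members under the choice of row, which could not differ. No paired analysis was possible because each group had 1 library, and no replicate could be left out. Members below about 0.1 FPKM rest on low fragment numbers.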

Other observations

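Between the libraries, the ratio of values below 0.3 FPKM equalled a ratio of whole numbers up to 12 (within 0.0002 of it, after the depth ratio of 1.02) for 57.7% of 2344 low genes that are not members. The same held for 0 of 9 low PCDHA genes, 2 of 16 PCDHB genes and 7 of 12 PCDHG genes, and for 6 of 14 other members. Taking locus width as length put PCDHB4 at 9.11 and 9.04 estimated fragments, PCDHB11 at 14.3 and 7.45 and PCDHB19P at 0.998 and 5.99. Division of fragments between close copies was not tested.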
